A study of Homo sapiens with 12 samples.

Results

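The response to a single radiation dose was measured in LNCaP prostate cancer cells that kept their PRMT5. The comparison takes 6 of the 12 RNA-seq libraries of the series: 3 irradiated controls, collected 24 h after 2 Gy, and 3 non-irradiated controls. All libraries came from 1 line, LNCaP-shPRMT5, an androgen-responsive human prostate adenocarcinoma line in which doxycycline switches on a short hairpin RNA that depletes PRMT5, the type II arginine methyltransferase that makes symmetric dimethylarginine. The controls of both groups received no doxycycline. The other 6 libraries are the knockdowns, given 1 µg/mL doxycycline every 48 h, without irradiation (3) or with 2 Gy (3). They serve here as a second arm with the same irradiation contrast. The cells grew in RPMI1640 with 10% fetal bovine serum, and polyadenylated RNA was sequenced. Nothing in the labels says that replicates are separate cultures, so p-values measure the spread between these libraries, which may be technical.

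Ionising radiation breaks DNA, and the kinases ATM and ATR then stabilise p53, a transcription factor that switches on genes for growth arrest, apoptosis and repair. LNCaP cells carry wild-type p53. Cells that stop dividing lose transcripts of DNA replication and mitosis, which are driven by E2F factors and by the MuvB complexes acting at CHR and CCAAT promoter elements. Stress on protein synthesis or amino acid supply acts through another route, the integrated stress response, in which ATF4 induces DDIT3, TRIB3 and amino acid synthesis genes.

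Counts on genes numbered 14801939 to 22784724 per non-irradiated and 26836023 to 33158865 per irradiated control library. The 2 states were deposited in separate count tables with identical gene IDs, coordinates and gene lengths, so the effect of 2 Gy and whatever else differed between the 2 sets of libraries cannot be told apart. Irradiated replicate 1 stood apart: its counts differed from replicates 2 and 3 by a chi-square of 129 and 105 per gene, against 12.5 between those 2 replicates and 11.3 to 18.2 among the non-irradiated libraries. Gene lists that moved with it are given with and without it. PRMT5 transcripts were at 186, 190 and 198 CPM (counts scaled to a common TMM-adjusted library size) without radiation and at 230, 187 and 187 after it, and at 24.9 to 32.8 in the 6 knockdown libraries. PRMT5 therefore matched the doxycycline labels, and its irradiation difference in controls was 0.07 ± 0.12 on the log2 scale (SE, n = 3 against 3; edgeR adjusted p = 0.750). This small difference turned negative under scaling by library size (-0.0860) and without irradiated replicate 1 (-0.0391).

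Of 17191 genes with enough counts, 238 were higher after irradiation (1.38% of those tested) and 151 lower (0.878%), by edgeR's quasi-likelihood test at a Benjamini-Hochberg adjusted p below 0.05. Among these, 116 rose and 95 fell by more than 2-fold, and all 389 had 3 irradiated libraries on one side of all 3 non-irradiated libraries. Such separation was common in itself, at 13.7% of all tested genes upward and 13.9% downward. The median log2 difference over all tested genes was -0.00. The calls depended on single libraries: without non-irradiated replicate 2 there were 21 higher and 18 lower genes, without non-irradiated replicate 3 there were 16 and 8, and without irradiated replicate 1 there were 121 and 73. Without irradiated replicate 2 there were 73 higher and 31 lower, and without irradiated replicate 3 there were 189 and 75. Scaling by library size alone gave 170 higher and 444 lower genes, so that 27.7% of the calls were higher in place of 61.2%, and it shifted the median of all genes to -0.16.

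**Figure D1:**
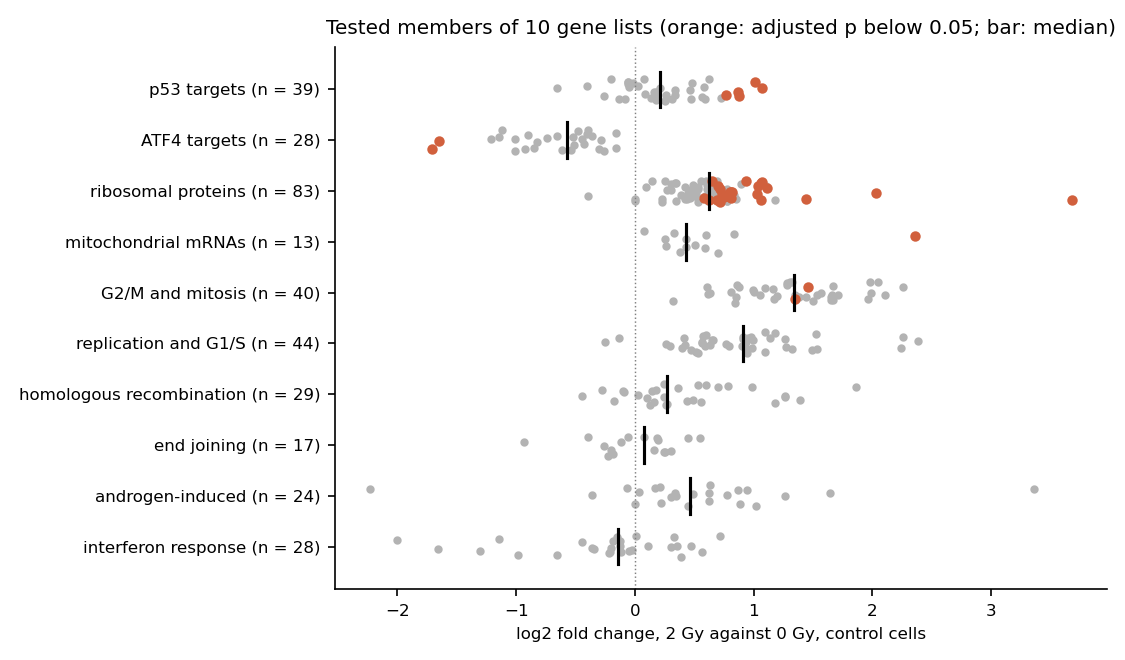
Log2 fold change of 2 Gy against 0 Gy in control cells (x axis) for every tested member of 10 gene lists (rows). Each point is 1 gene, orange where the edgeR adjusted p is below 0.05, and the black bar is the list's median; ATF4 targets lie wholly below 0, G2/M genes wholly above, and most orange points belong to ribosomal proteins.

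The p53 targets as a group were only modestly higher. Of 39 tested targets on 3 lists (growth arrest and feedback, cell death and metabolism, DNA repair and nucleotide supply), 5 were called higher and none lower, which is 12.8% against 1.38% of all genes. The median difference was 0.21 on the log2 scale, 28 of 39 were positive, and the 5 called were BTG2, SESN1, TOB1, RPS27L and TRIAP1. The mean log2 CPM over the 39 genes was 5.89, 5.97 and 6.02 without radiation and 6.05, 6.30 and 6.25 after it. The groups did not overlap, and irradiated replicate 1 was the lowest of its group. Without that library 6 were called higher, with a median of 0.24. Without non-irradiated replicate 2 none was called, and without non-irradiated replicate 3 there was 1. Over the 3 lists in order, a fit of only the 6 compared libraries called 1, 0 and 0, and DESeq2 called 4, 4 and 2.

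BTG2, an antiproliferative gene that p53 induces directly (chromosome 1, 203305491 to 203309602), was at 73.2, 60.4 and 80.1 CPM without radiation and at 136.3, 152.0 and 142.1 after it. All irradiated libraries were well above all non-irradiated ones, and the difference was 1.01 ± 0.17 (edgeR adjusted p = 0.0149). SESN1 encodes sestrin 1, which restrains growth signalling through mTORC1. It was at 132, 111 and 127 CPM in non-irradiated and 201, 254 and 220 CPM in irradiated cells, a log2 difference of 0.87 ± 0.14 (adjusted p = 0.0139, edgeR). TOB1, of the same antiproliferative family as BTG2, rose from 86.4, 65.5 and 69.5 CPM to 162, 132 and 112 CPM (0.88 ± 0.16, edgeR adjusted p = 0.0256). The 3 genes share the arrest and feedback list, where 3 of 15 were called.

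Among the targets tied to cell death and metabolism, 2 of 18 were called. RPS27L, a p53-induced relative of the ribosomal protein RPS27, was at 129, 138 and 139 CPM against 353, 277 and 224 CPM after 2 Gy (1.07 ± 0.18, edgeR adjusted p = 0.0149). TRIAP1, a small mitochondrial inhibitor of apoptosis, went from 49.0, 54.6 and 53.5 CPM to 114, 80.8 and 72.4 CPM (0.77 ± 0.15, edgeR adjusted p = 0.0301). In both genes the groups were separate and irradiated replicate 1 was the highest library. BAX, the mitochondrial death effector, was also separated, at 31.4, 38.2 and 31.9 against 77.8, 42.5 and 48.0 CPM, but missed the threshold (0.73 ± 0.22, edgeR adjusted p = 0.0949). FDXR, ferredoxin reductase, likewise missed it (0.59 ± 0.15, edgeR adjusted p = 0.0606).

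The best known p53 targets, CDKN1A and MDM2, which were singled out after their values were seen, did not pass. CDKN1A encodes the cyclin-dependent kinase inhibitor p21. It was at 229, 314 and 351 CPM without radiation and at 313, 298 and 333 CPM after it, so the irradiated values lay inside the range of the others (0.08 ± 0.20, edgeR adjusted p = 0.839). Its sign turned under library-size scaling (-0.0714) and without non-irradiated replicate 1 (-0.0780). MDM2, the ubiquitin ligase that degrades p53, was at 314, 320 and 351 against 307, 470 and 469 CPM, overlapping because of irradiated replicate 1 (0.34 ± 0.18, edgeR adjusted p = 0.299). Neither p value shows that these genes were unaffected. In the repair list no gene of 6 was called: DDB2, the damage recognition factor, differed by 0.56 ± 0.17 (edgeR adjusted p = 0.101), and the helicase gene ASCC3 by 0.47 ± 0.12 (edgeR adjusted p = 0.0615).

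**Figure D2:**
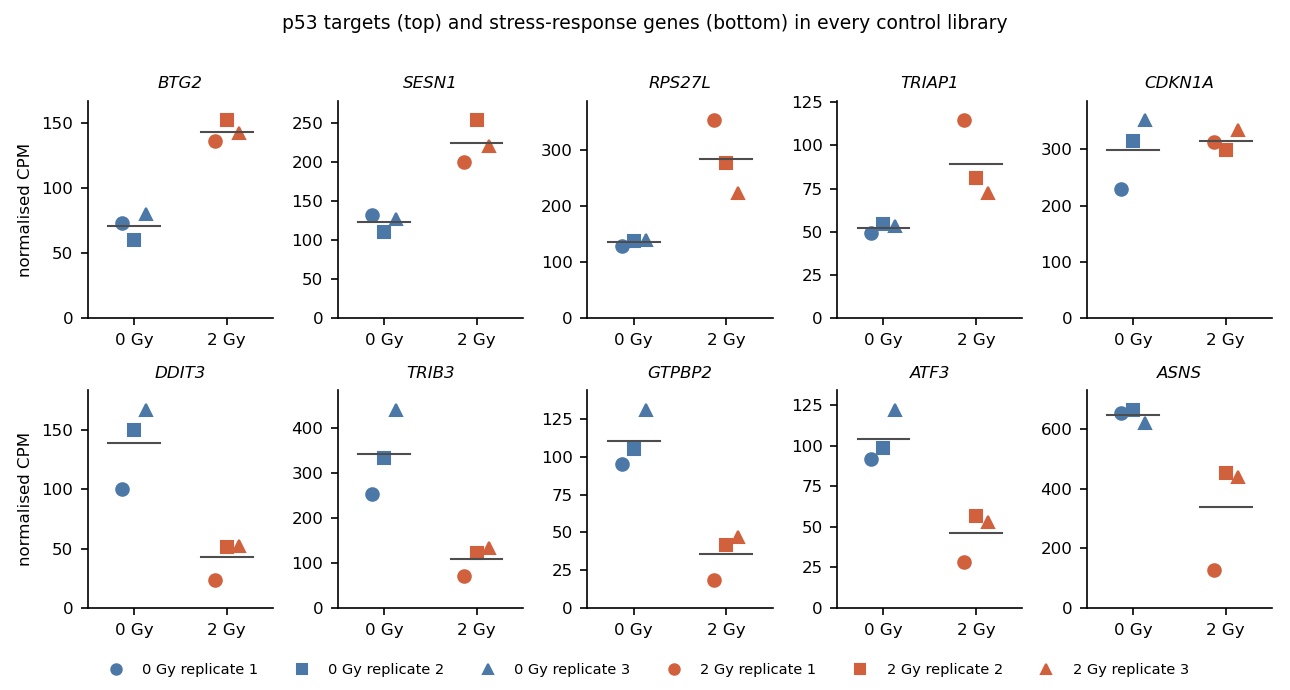
Normalised CPM (y axis, from 0) of 10 genes in the 3 non-irradiated (blue) and 3 irradiated (orange) control libraries; marker shape gives the replicate and the line the group mean. BTG2, SESN1, RPS27L and TRIAP1 are separated upward, CDKN1A overlaps (229 to 351 against 298 to 333 CPM), and the 5 stress-response genes in the lower row are separated downward.

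Genes of the integrated stress response were lower after irradiation. All 28 tested ATF4 targets had a negative difference, with a median of -0.58, 16 were separated downward, and 2 were called lower (DDIT3 and TRIB3). That is 7.14% called lower against 0.878% of all genes, of which 13.9% were separated downward. The list's mean log2 CPM was 7.37, 7.35 and 7.43 without radiation and 5.66, 6.95 and 7.04 after it. Irradiated replicate 1 was the lowest by over 1 log2 unit, and without it the median was -0.32, with 24 of 28 negative and 2 called. Without non-irradiated replicate 2 or 3, or with only the 6 compared libraries in the fit, none was called.

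DDIT3 encodes CHOP, the pro-apoptotic factor of the response (chromosome 12, 57516588 to 57520517). It was at 100.6, 150.4 and 167.0 CPM in non-irradiated and at 23.9, 51.7 and 52.1 CPM in irradiated controls, a difference of -1.71 ± 0.27 (edgeR adjusted p = 0.0140). TRIB3, a pseudokinase induced by ATF4 and CHOP, fell from 253, 334 and 441 CPM to 71.1, 122 and 134 CPM (-1.65 ± 0.28, edgeR adjusted p = 0.0162). In both genes every irradiated library was below every non-irradiated one, and irradiated replicate 1 was the lowest. DDIT3 shares 28.04% of its exon positions with another gene. Stress genes outside this list were among the largest decreases too: GTPBP2, a GTPase of ribosome rescue, at 95.4, 105 and 131 against 18.4, 41.7 and 46.8 CPM (-1.63 ± 0.31, edgeR adjusted p = 0.0258), and the ATF family repressor ATF3, at 92.2, 98.5 and 122 against 28.4, 56.8 and 52.97 CPM (-1.18 ± 0.22, edgeR adjusted p = 0.0259).

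Amino acid synthesis genes of the list moved the same way without passing. PHGDH, the first enzyme of serine synthesis, was at 783, 937 and 803 CPM against 224, 475 and 552 CPM (-1.01 ± 0.27, edgeR adjusted p = 0.0683). SLC3A2, the shared heavy chain of several amino acid transporters, was at 235, 235 and 273 against 126, 176 and 184 CPM (-0.61 ± 0.17, edgeR adjusted p = 0.0743). ATF4 itself overlapped, at 933, 966 and 945 against 388, 939 and 985 CPM, where irradiated replicate 1 alone was low.

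Transcripts of the translation apparatus were higher. Of 83 tested cytosolic ribosomal protein genes, 24 were called higher (28.9% against 1.38% of all genes) and none lower. Separated upward were 66, against 13.7% of all genes, and 82 were positive, with a median of 0.62. These genes took 5.94, 6.91 and 6.61% of all counts without radiation and 9.86, 8.06 and 8.24% after it (6.49 ± 0.50% against 8.72 ± 0.99%, SD; exact two-sided permutation p = 0.10, the smallest that 3 against 3 can give). Without irradiated replicate 1 the median was 0.42 and 14 were called. Without non-irradiated replicate 2 there were 5, and without non-irradiated replicate 3 there were 4. Many ribosomal protein genes have processed copies elsewhere in the genome, and only 23 of the 83 shared less than 5% of their sequence words and exon positions with another gene; 7 of these 23 were called, and 3 of the 23 when only genes of unique sequence were tested. Over the 83, a fit of only the 6 compared libraries called 4. One of them, RPS15A of the small subunit, was at 299, 327 and 334 against 632, 644 and 555 CPM (0.93 ± 0.11, edgeR adjusted p = 0.00269). RPS24, another, was at 999, 1143 and 994 against 2380, 2341 and 1726 CPM (1.04 ± 0.16, edgeR adjusted p = 0.0117). Both rose to about double with no overlap.

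The largest called change among these genes was in RPL26, a large-subunit protein that also binds p53 messenger RNA (chromosome 17, 8377520 to 8383213). It was at 39.0, 36.0 and 34.1 CPM in non-irradiated and at 538, 448 and 412 CPM in irradiated controls, a difference of 3.68 ± 0.14 (edgeR adjusted p = 1.37e-07). Replicates within each state were tight and the states far apart. For RPL38, another large-subunit protein gene of the list, the log2 difference was 1.44. In the annotation, 14.6% of the exon positions of RPL26 are also covered by another gene and 11.6% of its 50-base words occur elsewhere. Whether counting took part in its difference was not tested.

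Mitochondrially encoded messenger RNAs, which specify subunits of the respiratory chain and ATP synthase, were all positive (13 of 13, median 0.43). Under library-size scaling 12 of 13 were positive, with a median of 0.28. In the main fit 9 were separated upward, against 13.7% of all genes, and 1 was called higher (7.69% against 1.38%). The called gene was MT-ATP8, at 119, 156 and 139 against 793, 675 and 654 CPM (2.36 ± 0.21, edgeR adjusted p = 0.000246). MT-ATP8 shares 22.2% of its exon positions with its neighbour MT-ATP6, which was at 2567, 3276 and 2633 against 4805, 3306 and 3945 CPM (0.51 ± 0.19). All genes of the mitochondrial genome together took 5.49 ± 0.39% of counts without and 6.95 ± 0.35% with irradiation (SD, n = 3; exact two-sided permutation p = 0.10, the smallest possible).

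**Figure D3:**
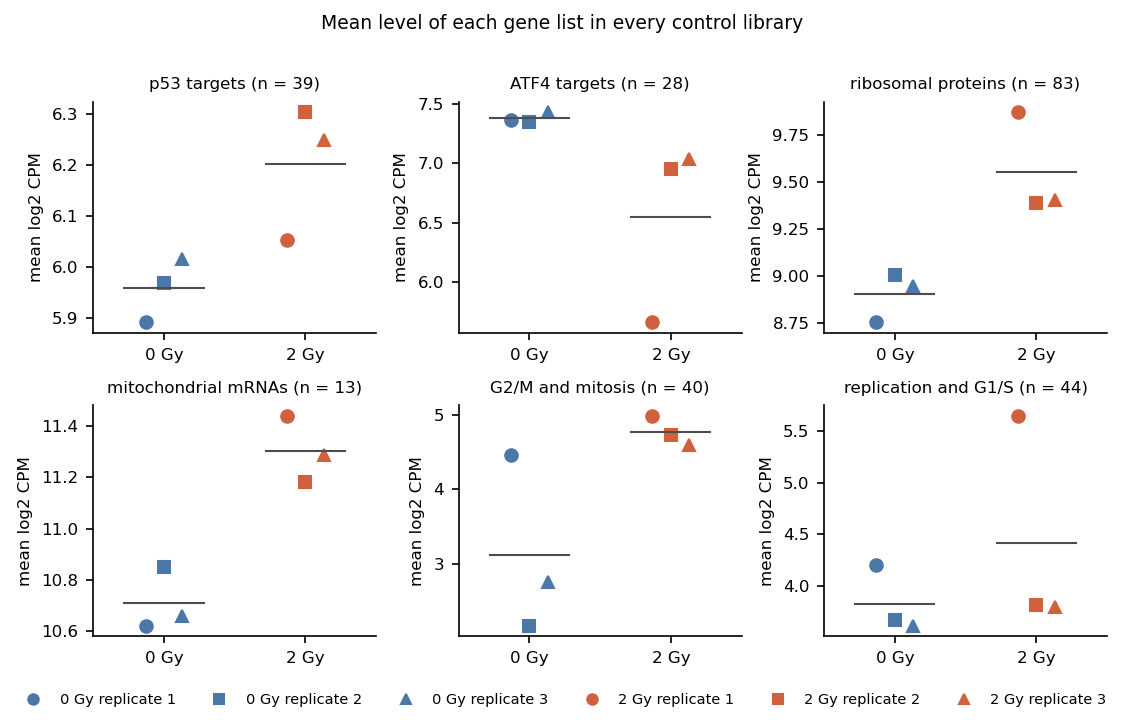
Mean log2 CPM (y axes, which differ between panels and do not start at 0) of 6 gene lists in each control library, non-irradiated in blue and irradiated in orange, with marker shape for the replicate and a line for the group mean. Ribosomal protein and mitochondrial lists are separated upward, while irradiated replicate 1 alone carries the replication list (5.65 against 3.81 and 3.80) and non-irradiated replicate 1 sits at 4.45 in the G2/M list, above 2.17 and 2.76.

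Mitotic genes were higher in the irradiated controls, with a wide spread among the non-irradiated ones. All 40 tested G2/M genes were positive, with a median of 1.34, and 22 were separated upward, against 13.7% of all genes. Called higher were 2 (CCNB1 and CKS2, 5.00% against 1.38% of all genes). The list's mean log2 CPM was 4.45, 2.17 and 2.76 without radiation and 4.99, 4.73 and 4.59 after it. Non-irradiated replicate 1 lay much closer to the irradiated libraries than to its own group. Without it the median was 2.39 and 28 of 40 were called. Without either of the other non-irradiated libraries, or without irradiated replicate 1 or 2, none was. A fit of only the 6 compared libraries called none, nor was any of 29 called when only genes of unique sequence were tested. DESeq2 called 8 of the list and limma-voom 6.

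The promoters of this list carry the elements of mitotic genes, printed here for 5 members in which the CHR word starts at position -29, -28 (KIF11) or -20 (PRC1) from the RefSeq gene start (GRCh38.p14, gene strand). Capitals mark the CHR word and, where the window holds one, CCAAT or its reverse complement; PLK1 has none.
CCNB2 (chr15:59105077-59105132, plus strand): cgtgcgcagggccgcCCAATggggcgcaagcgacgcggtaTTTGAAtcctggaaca
CKS2 (chr9:89311126-89311181, plus strand): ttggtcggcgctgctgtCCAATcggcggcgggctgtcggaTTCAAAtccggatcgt
KIF11 (chr10:92593062-92593117, plus strand): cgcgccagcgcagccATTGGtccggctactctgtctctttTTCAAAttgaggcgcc
PRC1 (chr15:90994540-90994595, minus strand): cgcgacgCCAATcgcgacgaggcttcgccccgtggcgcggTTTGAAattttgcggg
PLK1 (chr16:23678820-23678875, plus strand): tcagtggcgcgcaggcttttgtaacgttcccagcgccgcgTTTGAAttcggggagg
Of 33 list members with an entry, 23 (69.7%) held TTTGAA, its reverse complement TTCAAA, or TTCGAA in the 300 bases around the start, against 16.6% of all 27305 promoters in the table. CCAAT on either strand stood in 24 of 33 (72.7%) against 35.7%, and both words in 19 (57.6%) against 6.58%. CCAAT was nearly as frequent in other lists, at 68.2% of ATF4 targets, 58.3% of p53 arrest targets and 53.8% of G1/S genes, whereas the CHR word stood in 4.55%, 0% and 5.13% of these. A word match describes the sequence and is not a binding site.

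CCNB1, the cyclin that drives entry into mitosis, was at 61.4, 28.1 and 30.02 CPM without radiation and at 110, 97.6 and 95.2 CPM after it (1.35 ± 0.27, edgeR adjusted p = 0.0301). CKS2, a small subunit of cyclin-dependent kinases whose promoter is shown above, was at 32.7, 19.0 and 18.6 against 94.4, 50.9 and 47.4 CPM (1.46 ± 0.33, edgeR adjusted p = 0.0460). Both were separated, with non-irradiated replicate 1 nearest to the irradiated libraries. The securin gene PTTG1 was at 15.5, 1.64 and 3.59 against 28.7, 30.9 and 24.6 CPM, also separated, and did not pass (2.05 ± 0.61, edgeR adjusted p = 0.0950). In bulk RNA a larger share of mitotic cells and more of each transcript per cell cannot be told apart.

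Of all genes 1.38% were called higher and 0.878% lower, and the 44 DNA replication and G1/S genes gave no call. Their median was 0.91 with 42 positive, but it came from 1 library: the mean log2 CPM was 4.20, 3.67 and 3.61 without radiation and 5.65, 3.81 and 3.80 after it, and without irradiated replicate 1 the median was -0.0454 with 19 positive. PCNA, the replication clamp and also a p53 target, was at 77.6, 74.5 and 75.2 against 213, 119 and 94.2 CPM (0.91 ± 0.27, edgeR adjusted p = 0.0950). The E2F core GCGGGAA, on either strand, stood in 18 of 39 promoters of the list (46.2%) against 6.56% of all.

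At shares of 1.38% called higher and 0.878% lower over all tested genes, lists of this size may hold few calls or none. No gene of the repair lists was called. This covers 22 genes of damage sensing and checkpoint (median 0.10), 29 of homologous recombination (0.27), 17 of non-homologous end joining (0.07) and 19 of the Fanconi anaemia pathway (0.19). Without irradiated replicate 1 these medians were -0.016, 0.057, -0.0089 and 0.025, so 2 of the 4 changed sign. H2AFX, which encodes the histone variant phosphorylated at breaks, was at 13.4, 13.3 and 12.0 against 58.6, 18.7 and 15.6 CPM, so most of its difference of 1.26 ± 0.44 lay in irradiated replicate 1 (edgeR adjusted p = 0.135). XRCC5, the Ku80 subunit that binds DNA ends, differed by 0.45 ± 0.14 with separated groups (edgeR adjusted p = 0.110). MUS81, a nuclease for joint molecules, differed by -0.44 ± 0.12, also separated (edgeR adjusted p = 0.0683).

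Early-response genes were called in both directions, 10.5% of those tested higher and 5.26% lower, against 1.38% and 0.878% of all genes. Among 19 tested, JUNB, an AP-1 subunit (5.53, 5.31 and 6.27 against 17.5, 10.1 and 8.87 CPM; 1.09 ± 0.25, edgeR adjusted p = 0.0460), and IER5, a radiation-inducible gene that acts on heat shock factor 1 (5.469, 3.204 and 4.836 against 9.92, 9.79 and 7.58 CPM; 1.02 ± 0.20, edgeR adjusted p = 0.0297), were called higher, and ATF3 lower. The median was -0.08. JUNB and IER5 were both lost without irradiated replicate 1 or 2 and without non-irradiated replicate 2 or 3, JUNB also without non-irradiated replicate 1, and ATF3 without non-irradiated replicate 2 or 3. MYC was separated at 296, 201 and 195 against 373, 343 and 380 CPM and fell just short (0.66 ± 0.16, edgeR adjusted p = 0.0510). Only 11 of 26 NF-kB and inflammatory genes had enough counts, and none was called, nor was any of 28 interferon response genes (median -0.14, and 0.0059 without non-irradiated replicate 1).

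Other stress and metabolic lists held few calls. Over all genes, 1.38% were called higher and 0.878% lower. Of 25 genes of the unfolded protein and heat shock responses, the chaperone genes HSPB1 (58.6, 64.7 and 48.3 against 254.4, 102.6 and 100.97 CPM; 1.42 ± 0.32, edgeR adjusted p = 0.0436) and HSPE1 (40.3, 38.2 and 32.9 against 163, 63.5 and 74.4 CPM; 1.43 ± 0.33, edgeR adjusted p = 0.0475) were called higher, both highest in irradiated replicate 1. Both calls were lost without any 1 of the non-irradiated libraries, and HSPE1 also without irradiated replicate 1 or 3. Of 18 NRF2 antioxidant genes, GCLM of glutathione synthesis was called lower, at 95.9, 87.9 and 73.4 against 52.8, 57.9 and 53.4 CPM (-0.65 ± 0.15, edgeR adjusted p = 0.0481), and SRXN1, which shares 85.0% of its exon positions with another gene, higher at under 1 CPM in every library. The GCLM call was lost whichever control library was left out, and that of SRXN1 without non-irradiated replicate 2 or 3 or irradiated replicate 2 or 3. HMOX1, haem oxygenase, was separated at 38.9, 28.8 and 20.2 against 15.5, 7.77 and 7.92 CPM without passing (-1.49 ± 0.38, edgeR adjusted p = 0.0637). No call fell among 24 androgen-induced genes (median 0.47), 24 of cholesterol synthesis (0.33), 25 of glycolysis and hypoxia (0.31) or 12 of the methylosome and other arginine methyltransferases (0.27). Without irradiated replicate 1 these medians were 0.11 (13 of 24 positive), 0.18, 0.088 and 0.17. KLK3, which encodes prostate-specific antigen, was at 2379, 2084 and 1980 against 4078, 2957 and 2951 CPM (0.63 ± 0.17, edgeR adjusted p = 0.0683). The androgen list's mean log2 CPM was 7.39 in irradiated replicate 1 against 6.28 and 6.24 in the other irradiated libraries. Of 18 long non-coding snoRNA hosts, ZFAS1 was called (0.52 ± 0.11, edgeR adjusted p = 0.0388), and of 39 replication-dependent histone genes HIST2H4A was called lower (-1.05 ± 0.20, edgeR adjusted p = 0.0256); 97.5% of its words occur in other genes. Both calls were lost without non-irradiated replicate 2 or 3 or irradiated replicate 2 or 3, and ZFAS1 also without non-irradiated replicate 1.

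Calls were frequent among genes whose sequence has copies. Of 1237 tested pseudogenes, 31 were called higher and 60 lower (2.51% and 4.85%), with a median of -0.41, while 12753 protein-coding genes gave 192 and 76 (1.51% and 0.596%) and a median of 0.04. Genes sharing over 50% of their 50-base words with another gene were 16.4% of the higher and 27.8% of the lower calls but 6.53% of genes not called. Pseudogenes as a class took 0.684 ± 0.038% of counts without and 0.566 ± 0.028% with irradiation (SD). Reads from near-identical sequences can be assigned to either locus, so the values of such genes are uncertain.

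In 4 pairs described here, picked after their values were seen, the pseudogene copy was called and its parent gene was not. In other families both were called, such as RPL14P1 (1.98) with RPL14 (0.71). Aligned stretches of 60 bases from 3 pairs, read from GENCODE 29 transcripts on GRCh38, are printed to show how little separates copy and parent, with differing bases in capitals; the RPS2P5 and RPS2 stretch is identical.
MTND2P28: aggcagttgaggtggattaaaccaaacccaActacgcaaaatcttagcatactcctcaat
MT-ND2: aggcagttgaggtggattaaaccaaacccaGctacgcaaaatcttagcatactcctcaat
RPS2P5: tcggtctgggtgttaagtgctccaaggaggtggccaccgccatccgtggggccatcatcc
RPS2: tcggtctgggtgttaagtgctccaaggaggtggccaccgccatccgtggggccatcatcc
RPL13AP25: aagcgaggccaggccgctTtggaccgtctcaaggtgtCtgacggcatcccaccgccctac
RPL13A: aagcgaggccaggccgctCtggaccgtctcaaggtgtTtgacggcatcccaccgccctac
MTND2P28 is a nuclear copy of MT-ND2 (chromosome 1, 629640 to 630683) that matches it at 98.4% of 1042 aligned bases. It was at 6.10, 4.43 and 4.79 against 51.3, 42.9 and 62.3 CPM (3.36 ± 0.18, edgeR adjusted p = 2.47e-06). MT-ND2 was at 1880, 2577 and 2179 against 3021, 2329 and 2966 CPM, overlapping (0.33 ± 0.15, edgeR adjusted p = 0.244). RPS2P5, 98.7% identical to RPS2 over 879 bases, rose from 104, 98.3 and 111 to 536, 407 and 374 CPM (2.07 ± 0.17, edgeR adjusted p = 0.000208), against 0.74 ± 0.19 in RPS2 (edgeR adjusted p = 0.0626). RPL13AP25, 97.7% identical to RPL13A over 612 bases, went the other way, from 14.5, 12.0 and 15.2 to 3.36, 2.52 and 2.12 CPM (-2.38 ± 0.45, edgeR adjusted p = 0.0260), while RPL13A differed by 0.61 ± 0.14 (edgeR adjusted p = 0.0505). PPIAP22 fell by 1.18 and its parent PPIA, the cyclophilin A gene, differed by 0.46.

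**Figure D4:**
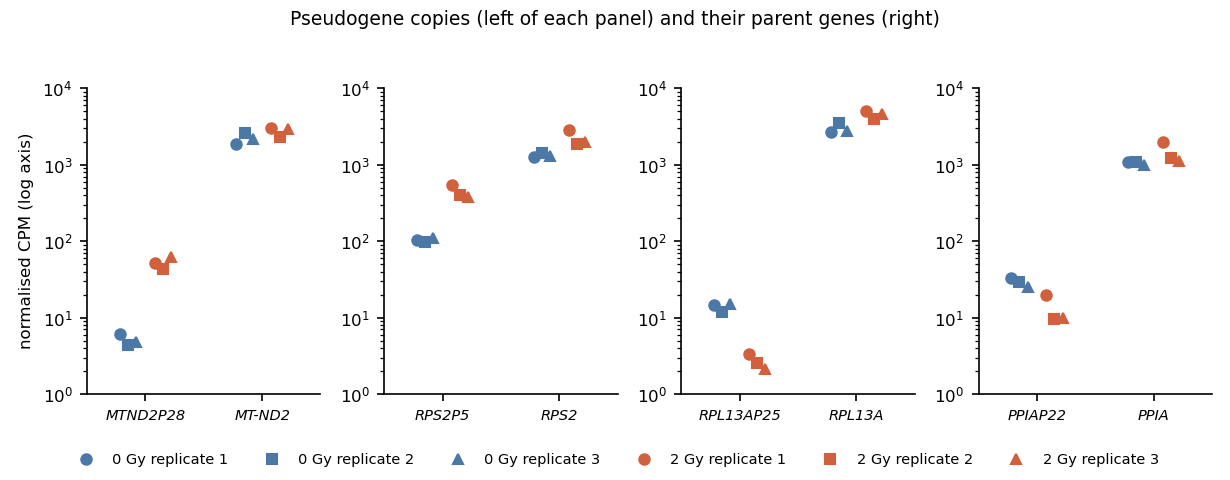
Normalised CPM (log axis) of 4 pseudogene copies and their parent genes in the 3 non-irradiated (blue) and 3 irradiated (orange) control libraries, with marker shape for the replicate. MTND2P28 and RPS2P5 are separated upward and RPL13AP25 and PPIAP22 downward, whereas the parents lie at about 1000 to 5000 CPM with smaller differences.

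Several of the 15 largest increases were in genes that share sequence or exons with others. UQCRHL, a processed relative of a respiratory complex III subunit gene, was at 3.02, 2.87 and 2.68 against 28.7, 18.7 and 14.9 CPM (2.86 ± 0.28, edgeR adjusted p = 0.000526). GABARAP, which acts in autophagosome formation, was at 16.5, 12.5 and 16.9 against 79.7, 46.8 and 60.97 CPM (2.03 ± 0.21, edgeR adjusted p = 0.000658), with 55.7% of its exon positions shared. PSMA6, a subunit of the proteasome core, was at 9.24, 11.4 and 11.4 against 64.2, 31.5 and 33.97 CPM (2.01 ± 0.28, edgeR adjusted p = 0.00762). In all 3 the lowest irradiated library was more than 2 times the highest non-irradiated one. TOMM5 of the mitochondrial import pore (2.35), MRPL12 of the mitochondrial ribosome (2.30), PET100 of cytochrome oxidase assembly (2.02) and the transcription factor gene TWIST1 (2.10) were also among the 15 largest. MRPL12 shared 66.6% of its words and 68.2% of its exon positions. EEF1A1P6, a copy of the elongation factor gene EEF1A1, fell from 18.2, 12.8 and 14.5 to 3.82, 4.10 and 3.87 CPM (-1.94 ± 0.26, edgeR adjusted p = 0.00670).

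Among protein-coding genes that share less than 5% of their words and exon positions with others, a rule applied after the values were seen, 94 of 8112 were called higher (1.16%) and 38 lower (0.468%). RGS10, a regulator that shortens G protein signals, was at 12.3, 9.23 and 10.3 against 29.2, 31.4 and 27.2 CPM (1.46 ± 0.14, edgeR adjusted p = 0.000424). It was 1 of 12 named genes that passed whichever single control library was left out. ETV1, an ETS transcription factor that is rearranged and overexpressed in LNCaP, was at 157, 82.2 and 142.3 against 315, 389 and 348 CPM (1.46 ± 0.29, edgeR adjusted p = 0.0301). SLC4A4, a sodium bicarbonate cotransporter, was at 78.8, 44.1 and 50.1 against 115, 187 and 182 CPM (1.49 ± 0.24, edgeR adjusted p = 0.0149). Irradiated values exceeded all non-irradiated ones in the 3 genes.

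GNAI1, an inhibitory G protein subunit, had the largest difference of this class among genes averaging at least 5 CPM, at 6.41, 5.14 and 9.53 against 78.2, 33.1 and 26.5 CPM (2.71 ± 0.59, edgeR adjusted p = 0.0395). IGFBP2, which binds insulin-like growth factors, was at 37.8, 38.0 and 39.0 against 153, 75.3 and 81.1 CPM (1.43 ± 0.27, edgeR adjusted p = 0.0258). GMNN, which encodes geminin, the inhibitor of replication licensing, was at 20.3, 13.7 and 12.7 against 51.1, 31.4 and 26.9 CPM (1.23 ± 0.27, edgeR adjusted p = 0.0437). In each, irradiated replicate 1 was the highest library. Downward, SLC31A1, the main copper importer, went from 248, 235 and 251 to 105, 139 and 144 CPM (-0.92 ± 0.18, edgeR adjusted p = 0.0270), and NRF1, a transcription factor for nuclear genes of mitochondria, from 35.8, 48.0 and 49.2 to 15.7, 20.9 and 25.6 CPM (-1.10 ± 0.22, edgeR adjusted p = 0.0320). DOCK3 (-1.33), PTPDC1 (-1.55), AKNA (-1.62) and PABPC1L (-1.25) were the other protein-coding genes of unique sequence among the 15 largest decreases besides those described.

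A few genes were at 0 in one state. CNTN6, a neuronal cell adhesion gene, had 0 counts in all 3 non-irradiated controls and 37, 46 and 36 counts in the irradiated ones (1.40 ± 0.03 CPM, SD), at least 28.3-fold higher than a floor of 3 counts over the group. SAMD9L had 18, 36 and 26 counts (at least 18.8-fold) and GABRA6 26, 16 and 17 (at least 14.4-fold) against 0. The 3 genes, all called by edgeR (adjusted p = 0.00670, 0.00713 and 0.0140) and picked out after their values were seen, also had 0 counts in all 3 non-irradiated knockdowns and at least 16 in every irradiated knockdown. No gene showed the opposite pattern with 10 or more counts in every non-irradiated control.

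The 2 Gy contrast in the knockdown arm, made of other libraries from the same 2 tables, was similar. It gave 374 higher (2.18%) and 241 lower genes (1.40%). Of the 238 genes higher in controls 167 were also called higher there (70.2% of the control calls and 44.7% of the knockdown calls), and of the 151 lower 80 (52.98% and 33.20%). None was called in opposite directions, and 388 of the 389 control calls had the same sign. RPL26 was at 37.5, 37.6 and 34.4 against 543, 435 and 460 CPM in the knockdowns, and BTG2 at 121, 76.6 and 86.3 against 184, 217 and 197 CPM. The medians of the p53 (0.36), ribosomal protein (0.68), ATF4 (-0.80) and mitochondrial lists (0.33) had the sign seen in controls.

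The mitotic and replication lists did not: their medians were -0.51 and -0.61 in the knockdown arm against 1.34 and 0.91 in controls. Without irradiated control replicate 1 the control medians were 1.14 and -0.0454, with 19 of 44 replication genes positive. The knockdown medians still include their own irradiated replicate 1, so these values are not like for like. CCNB1 was at 52.5, 68.9 and 67.0 CPM in non-irradiated and 96.1, 66.3 and 65.2 CPM in irradiated knockdowns (0.27, edgeR adjusted p = 0.591). In edgeR's test of the difference between the arms, 350 of 17191 genes had an unadjusted p below 0.05, against 3740 in the control contrast. After adjustment it called no gene at all, nor did DESeq2 or limma-voom. No difference between the arms was therefore shown for any single gene.

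**Figure D5:**
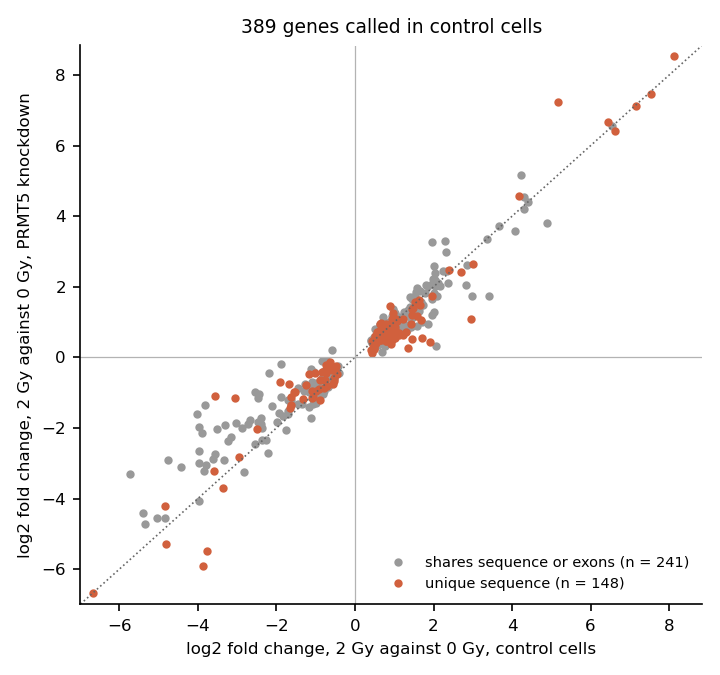
Log2 fold change of 2 Gy against 0 Gy for the 389 genes called in control cells (x axis) and in the PRMT5 knockdown arm (y axis), 1 point per gene, orange for 148 genes of unique sequence and grey for 241 that share sequence or exons; the dotted line marks equality. All but 1 gene have the same sign in both arms.

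Markers of the labelled cell type were high throughout: the 15 luminal prostate markers summed to 10519 to 11425 CPM without and 11652 to 12468 CPM with irradiation, and none was called. Leukocyte, endothelial, fibroblast, basal and neuroendocrine lists had no call either. In that order, 2 of 12, 2 of 7, 7 of 14, 4 of 8 and 3 of 15 members were tested. CD3E, MS4A1, COL1A2, PDGFRA, KDR and CHGA were at 0 in all 6 libraries. Other members were well above 0: FN1 (fibroblast) at 55.8 to 131 CPM, ITGA6 (basal) at 37.0 to 62.4 and ENO2 (neuroendocrine) at 24.8 to 79.0. VWF (endothelial) was separated upward, at 13.9, 17.9 and 21.1 against 25.3, 36.2 and 49.3 CPM. LCP1 (leukocyte) is given under other observations. Non-irradiated replicate 1, the library with high mitotic transcripts, alone held counts of the basal keratin KRT5 (81, or 5.08 CPM) and of ERG (74, or 4.65 CPM), both at 0 in the other 5. Their part in its mitotic level was not tested.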

How the data were processed

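The submitters' processing notes name the aligner STAR 2.5, Subread 1.5.3 with its counter featureCounts, edgeR 3.20.8 and the build GRCh38. The authors deposited whole-number counts for 63299 genes in a table for each irradiation state. The strand setting is not given in the sources used here, nor is the annotation release. Value columns belonging to no sample numbered 0. All 12 libraries were fitted together with edgeR 4.0.16 (filterByExpr, minimum count 10; TMM; robust quasi-likelihood F test; group means), and 17191 genes were tested with Benjamini-Hochberg adjustment at 0.05. CPM use TMM-scaled library sizes; list means average log2 CPM (prior count 2). A gene was unique where under 5% of its 50-base words (GENCODE 29 transcripts) and exon positions belonged to another gene. The fit was run on simulated counts with the fitted spread and no outlying library. It recovered 16% of 1.5-fold, 66% of 2-fold and 98% of 4-fold changes, and 6.04% of its calls were false. This does not check the fit where 1 library stands apart.

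Named genes were the 15 largest differences each way among called, separated genes averaging at least 5 CPM with a symbol other than a clone name, PRMT5, and up to 4 members per list with the smallest p. ATF4, CDKN1A, MDM2, MT-ATP6, RPL14, RPL14P1, RPL38, RPS24, parent genes, printed promoters, genes of unique sequence, genes at 0 in one state and those under other observations were added after their values were seen. Genes and lists were chosen with earlier results of these data known. Same-numbered libraries of the 2 states correlated at -0.00, -0.15 and 0.14 after each group's mean was removed, and other combinations at -0.14 to 0.13. These values cannot settle whether numbers pair samples, because irradiated replicate 1 stood apart within its group. Alternatives used other scaling, filters, DESeq2 1.42.0, limma 3.58.1 voom, a replicate block, length and GC offsets and left-out libraries. Intervals from counts of 0 cover counting error only.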

Additional observations from a re-analysis of the deposited data

How the results depend on the processing

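Counts of higher and lower genes (238 and 151) came to 219 and 146 with RLE size factors, 245 and 180 with limma-voom, 291 and 172 with a length offset and 353 and 201 with a GC offset. They moved further with library size only (170 and 444; 27.7% higher against 61.2%, median of all genes -0.16), no filter (378 and 214), DESeq2 (779 and 526), only the 6 compared libraries (27 and 37) and only genes of unique sequence (25 and 14, tested among 10063 genes). Without both irradiated libraries numbered 1 they were 471 and 397. The last 2 and the GC offset were added after seeing the data. Leaving out 1 control library gave 16 to 238 higher and 8 to 103 lower genes. Whether the replicate numbers pair the samples was not settled. With the replicate block, which leaves 4 residual degrees of freedom, 21 genes were higher and 9 lower. The cause of these changes was not tested. The difference between the arms called 0 genes under every alternative run.

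The G1/S median moved to -0.0452 without both irradiated libraries numbered 1 and ranged from -0.0454 to 1.19 over left-out libraries; G2/M ranged from 0.99 to 2.39. Library-size scaling gave 0.28 for mitochondrial messenger RNAs and 0.066 for p53 targets. PRMT5 reversed with library size (-0.0860), without both irradiated libraries numbered 1 (-0.0396) and over left-out libraries (-0.0391 to 0.14), and CDKN1A with library size (-0.0714) and over left-out libraries (-0.0780 to 0.20). With 3 libraries a group and the spread among them, small differences may be missed, and a gene not called is not shown to be unaffected.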

Other observations

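Non-irradiated control replicate 1 held 14 genes with at least 1 CPM that had 0 counts in each of the other 5 control libraries, and none of those 5 libraries held such a gene. The 14 include FES, a myeloid tyrosine kinase gene (138 counts), KRT5 (81), ERG (74) and FDCSP, a gene of follicular dendritic cells (20), and 7 of them are protein-coding. They were singled out after their values were seen. Irradiated control replicate 1 held LCP1, a plastin gene named for leukocytes and expressed in prostate cancer lines too, at 259 CPM against 77.9 to 84.7 CPM in the other irradiated and 48.1 to 73.8 CPM in the non-irradiated controls. It also held MAF, a transcription factor gene on the androgen list, at 53.5 CPM against 3.56 to 3.67 and 1.22 to 3.27 CPM, and FKBP5, an androgen- and glucocorticoid-induced chaperone gene, at 559 CPM against 85.4 to 90.9 and 62.5 to 97.2 CPM.

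The ribosomal RNA genes in the annotation took 1.06 ± 0.05% of counts in the non-irradiated and 1.74 ± 0.09% in the irradiated controls (SD, n = 3; exact two-sided permutation p = 0.10, the smallest possible). Nearly all of this was RNA of the mitochondrial ribosome, already part of the mitochondrial share in the report: MT-RNR2 averaged 8556 against 15908 CPM (0.89 ± 0.15, edgeR adjusted p = 0.0149) and MT-RNR1 1458 against 2493 CPM (0.77 ± 0.21, edgeR adjusted p = 0.0774). By gene length, the median log2 difference was -0.28 over 811 genes under 500 bases, -0.14 over 1330 genes of 500 to 1000 bases and between -0.07 and 0.07 in the longer classes.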
